A study of Mus musculus with 33 samples.

Results

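The transcriptome of regulatory T cells (Tregs) that had infiltrated a tolerated islet xenograft was compared with that of CD4+ T cells outside the Treg compartment in mice that had received no graft. The comparison took 6 of the 33 bulk RNA-Seq libraries of the study, 3 of graft Tregs and 3 of naive CD4+ T cells, assigned to their groups by the labels. All libraries came from DEREG mice, C57BL/6 animals carrying a transgene in which the Foxp3 promoter drives the diphtheria toxin receptor and enhanced GFP (EGFP), so that GFP marks cells with an active Foxp3 promoter. Sorted subsets were profiled by the SMART-Seq v4 full-length cDNA kit and paired 75 bp reads, 11 subsets with 3 libraries each.

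Graft Tregs were CD4+GFP+ cells recovered at day 100 from grafts of the tolerant group. These mice had 4000 islet equivalents of porcine neonatal islet cell clusters placed under the kidney capsule and were given MR-1, an antibody to CD154, in repeated doses of 500 µg, with a single dose of 500 µg of CTLA4-Fc. Naive CD4+ T cells were CD4+GFP− spleen cells of DEREG mice without a transplant or treatment. The word naive describes the mouse here, since the gate carried no marker that separates resting from antigen-experienced cells. A further subset, CD4+GFP+ Tregs from the spleen of naive mice (SP/naive Tregs, 3 libraries), is given beside the main comparison. Graft Tregs and naive CD4+ T cells differed at once in Foxp3 state, in tissue, and in transplantation and treatment, and these cannot be told apart in this pair. The study describes each sample as a pool of several mice. Its tolerant recipients were male and came from independent transplant experiments. For the spleen samples it gives 3 naive mice, all male. Read together, the 3 naive CD4+ T cell libraries share animals, as do those of SP/naive Tregs, and are not independent animals. All n of 3 below count libraries, and the p-values measure the spread between libraries, part of which may be technical.

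Tregs are CD4+ T cells that restrain immune responses and depend on the transcription factor Foxp3, which acts with high expression of the IL-2 receptor and of inhibitory molecules such as CTLA4. In non-lymphoid tissue, Tregs commonly carry KLRG1, an inhibitory receptor of terminally differentiated lymphocytes, and ST2 (encoded by Il1rl1), the receptor for the alarmin IL-33. Resting CD4+ T cells recirculate through lymphoid organs and hold a set of transcription factors, among them Lef1, Tcf7, Satb1 and Bach2, that is lost upon activation.

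The compared libraries held between 2929377 and 4158539 reads assigned to genes. Of the 31054 features counted, 25347 reached 1 CPM (a count scaled to the size of the library) in at least 1 of the 33 libraries and were tested. Genes with at least 1 read numbered 11620 to 13838 in graft Tregs. In naive CD4+ T cells they numbered 13611, 20097 and 14716, and replicate 2, with more genes than any other of the 33 libraries, also had 46.34% of its uniquely mapped reads outside genes, against 34.48% and 38.19% in replicates 1 and 3. All levels below are CPM after TMM scaling, given in the order of replicates 1, 2 and 3, and a gene is called when the adjusted p of edgeR's quasi-likelihood test is below 0.05 over all genes tested. A count of 0 in all 3 libraries of a group allows a level of up to 3 counts per library, which is 1.04 CPM on average in naive CD4+ T cells and 0.843 CPM in graft Tregs. Such limits and the intervals given for ratios cover counting error only.

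The sort itself was visible in the reads. EGFP, the transgene, was at 91.5, 74.9 and 67.9 CPM in graft Tregs and at 0 in all 3 naive CD4+ T cell libraries. Foxp3, the factor that defines the lineage (chrX:7573644-7595245, mm10, plus strand), was at 529, 600 and 672 CPM in graft Tregs and at 8.2, 0.317 and 0.392 CPM in naive CD4+ T cells. Both were well apart in all 6 libraries, as the gate on the Foxp3 promoter requires, with EGFP at least 75.4-fold higher (adjusted p = 1.32e-05) and Foxp3 higher by 7.62 ± 0.75 (SE) on the log2 scale (adjusted p = 9.28e-17). Because the cells were gated on this promoter, neither difference is a finding. Ccdc22, which overlaps the Foxp3 locus on the opposite strand, was also called higher, at 48.5, 12.1 and 19.1 CPM against 0, 0.317 and 0 (adjusted p = 0.0451). Its call was lost without graft Treg replicate 1 (0.115) or naive CD4+ T cell replicate 1 (0.187), 2 (0.101) or 3 (0.176), and the counts ignore strand. Reads over annotated exons of both genes were among the ambiguous reads left out. The T cell genes Cd3d (1356, 2353 and 1347 CPM in graft Tregs, 2527, 2524 and 2646 in naive CD4+ T cells) and Cd4 (121, 101 and 94.7 against 268, 426 and 230) were read in all 6 libraries, and neither was called (adjusted p = 0.42 and 0.352). Cd8a was at 0 in 4 of the 6 libraries.

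In all, 157 genes were called, 0.619% of those tested. Of these, 91 were higher in graft Tregs (0.359% of those tested) and 66 were lower (0.26%), and 85 of the 91 and 60 of the 66 were protein coding. In 128 of the 157 the CPM of the 3 graft Treg libraries did not overlap those of the 3 naive CD4+ T cell libraries, against 9.82% of all genes tested. Of the genes called higher, 17 had no read in naive CD4+ T cells, and of the genes called lower, 24 had no read in graft Tregs. The median log2 fold change over all genes tested was -0.22, or 0.00 when genes without reads in a group were set to their limit, and the medians of gene lists below are to be read against it. The plot of levels by library shows the 18 genes that kept their call under each alternative processing that gave them an adjusted p, namely EGFP, Foxp3, Il2ra, Ikzf2, Klrg1, Il1rl1, Ifngr1, Itgae, Fgl2, Penk, Rgs1, Serinc3, Serpina3g and Lyz2 among the higher genes, and Dapl1, Pde3b, Satb1 and Txk among the lower genes. Each other called gene named below lost its call under at least 1 alternative, whether or not a loss is given beside it. The 110 genes named with a test include some that were not called in the main fit. Of the 110, 54 lost a call after ComBat-Seq and 48 with at least 10 counts in at least 3 libraries. With the compared libraries only 28 lost it, under the likelihood ratio test 28 and with DESeq2 15. ComBat-Seq was run without a term for the subset. The lymph node libraries, all Tregs, were alone on their sequencer, so its correction can also take out differences between Tregs and other cells. The likelihood ratio test, the study's own, lost AW112010 (adjusted p = 0.0734), Ccr2 (0.0686), Nrp1 (0.0942), Maf (0.132), S100a10 (0.278), Tmsb10 (0.297), Gbp7 (0.114), Ly6c1 (0.0889), Ikzf1 (0.142) and Ighm (0.372) among others.

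**Figure D1:**
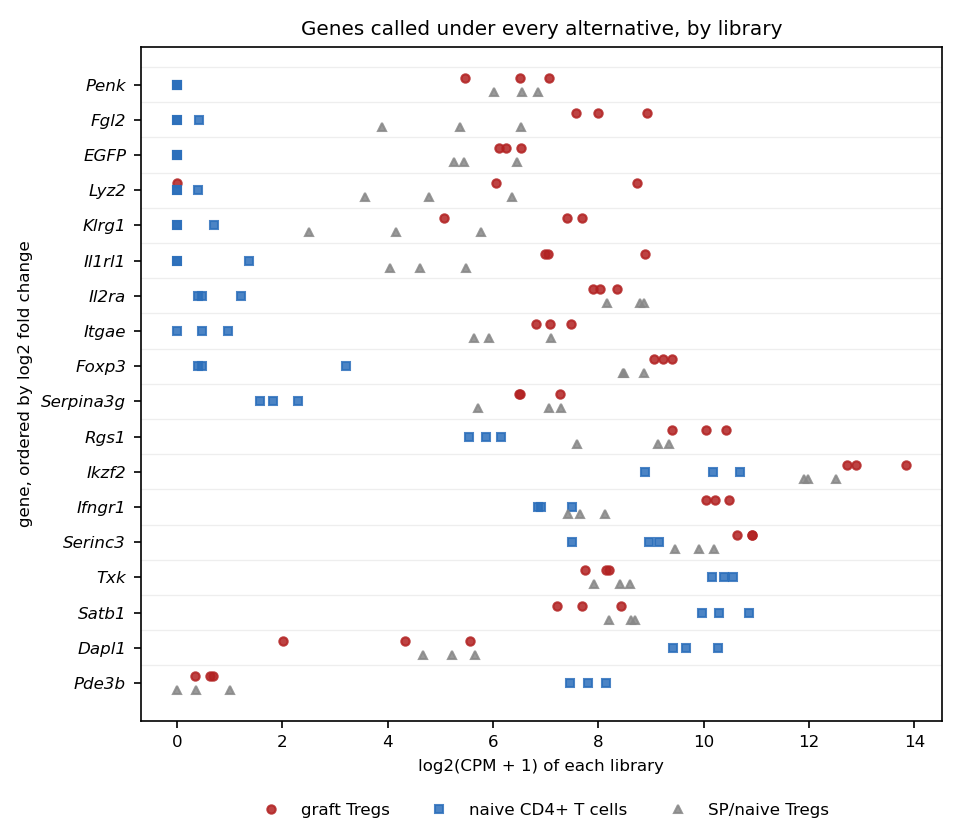
Levels of the 18 genes that kept their call under each alternative processing, as log2(CPM + 1) of each library (horizontal axis), ordered by log2 fold change. Red circles are graft Tregs, blue squares naive CD4+ T cells and grey triangles SP/naive Tregs, 3 libraries each. Red and blue points are apart for each gene but Lyz2, where 1 graft Treg library is at 0.

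Among the genes that define the Treg lineage, 10 of 12 were called higher and none lower, with a median log2 fold change of 3.20. Ikzf2, which encodes the transcription factor Helios (chr1:69531214-69687245), had the smallest p of the comparison. Its level was 6713, 14611 and 7631 CPM in graft Tregs and 1657, 470 and 1156 in naive CD4+ T cells, a rise of 3.14 ± 0.24 on the log2 scale (adjusted p = 2.96e-26). Il2ra, the high-affinity chain of the IL-2 receptor (CD25; chr2:11642807-11693193), was at 326, 237 and 262 CPM in graft Tregs and at 1.31, 0.317 and 0.392 in naive CD4+ T cells. No library of the groups overlapped for either gene, and Il2ra rose by 8.57 ± 0.75 (adjusted p = 1.06e-20). Il2rb, the chain that Il2ra assembles with to signal, rose by 2.75 ± 0.56, from 33.5, 37 and 16.8 CPM to 245, 170 and 173 (adjusted p = 0.001). Ctla4, the inhibitory receptor that competes for the ligands of CD28, was at 935, 486 and 704 CPM against 39, 45.6 and 137 and rose by 3.26 ± 0.52 (adjusted p = 2.39e-06). After ComBat-Seq neither Il2rb (adjusted p = 0.113) nor Ctla4 (0.206) was called. Ctla4 was the 1 gene called among 10 coinhibitory receptors, where Tigit gave 76.6, 368 and 195 CPM against 34.1, 0 and 29 without passing the test (adjusted p = 0.143). Tigit was called with a block on the replicate number (0.0291).

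Lrrc32 encodes GARP, which holds latent TGF-β on the Treg surface. It was at 64.5, 32.9 and 36.6 CPM in graft Tregs against 0.656, 0.633 and 0, and rose by 6.52 ± 1.43 (adjusted p = 0.0034). The surface receptor Nrp1 (370, 575 and 331 CPM against 150, 45.3 and 59.5), the transcription factor Ikzf4 (151, 87.8 and 128 against 20.3, 1.58 and 16.1) and the receptor Gpr83 (81.2, 93.6 and 136 against 5.25, 1.58 and 12.1) also rose without overlap. Their adjusted p were 0.0144, 0.0444 and 0.0448, and each call was lost when any of several libraries was left out. The log2 differences then ranged from 2.02 to 2.99 for Nrp1, 2.74 to 3.79 for Ikzf4 and 3.57 to 4.91 for Gpr83. That of Nrp1 was lost without graft Treg replicate 2 (0.0971) or without naive CD4+ T cell replicate 2 (0.143) or 3 (0.101). That of Gpr83 was lost without graft Treg replicate 2 (0.0589) or 3 (0.0995) or naive CD4+ T cell replicate 1 (0.147) or 2 (0.221). That of Ikzf4 was lost without graft Treg replicate 1 (0.11) or 3 (0.0771), or without naive CD4+ T cell replicate 1 (0.066), 2 (0.281) or 3 (0.115). Izumo1r and Capg, the remaining members, gave log2 differences of 1.74 and 2.79 with adjusted p of 0.0693 and 0.0548. Both were called with RLE scaling (0.0474 each) and with no filter on low counts (0.0219 and 0.0419), Izumo1r also with the compared libraries only (0.0399) and Capg with DESeq2 (0.0174) and with spleen and graft libraries only (0.00978). The call of Lrrc32 was lost with the compared libraries only (0.106) and after ComBat-Seq (0.24).

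Klrg1 (chr6:122270596-122282882), the inhibitory receptor that marks terminally differentiated and tissue Tregs, was at 168, 32.7 and 206 CPM in graft Tregs. It was at 0, 0.633 and 0 CPM in naive CD4+ T cells, which is 2 reads in all. The groups did not overlap, and the ratio of the pooled counts was 587, with a 95% counting interval from 162 to 4851 (adjusted p = 4.59e-05). Across the 11 subsets its mean level was highest in SP/CD127hi Tregs (154 ± 30.2 CPM, SD) and graft Tregs (136 ± 91.2), whose ranges overlapped. DLN/CD127hi Tregs, from the graft-draining lymph node, followed at 63.7 ± 37.4 CPM, and the remaining Treg subsets gave means between 3.32 and 43.3 CPM. All 6 CD4+GFP− libraries of tolerant and naive spleen lay at or below 0.633 CPM.

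Of 19 receptors for cytokines and alarmins, 2 were called higher and none lower, with a median log2 fold change of 0.60. Il1rl1 (chr1:40429570-40465415), the IL-33 receptor, was at 475, 126 and 131 CPM in graft Tregs and at 0, 1.58 and 0 in naive CD4+ T cells. It rose by 8.69 ± 1.45 (adjusted p = 7.33e-06), with graft Treg replicate 1 well above the other replicates. Leaving out 1 library gave rises from 7.77 to 12.47. Ifngr1 (chr10:19591949-19610229), the ligand-binding chain of the interferon γ receptor, was at 1422, 1182 and 1056 CPM against 114, 120 and 181, and rose by 3.14 ± 0.52 (adjusted p = 6.96e-06). For Ifngr1 the graft stood apart from the whole study, because the lowest graft Treg library (1056 CPM) lay above the highest library of each other subset, of which SP/CD127hi Tregs came nearest with a mean of 519 ± 83 CPM. Il7r, which encodes CD127, did not pass the test, at 1165, 694 and 739 CPM in graft Tregs and 1237, 915 and 1029 in naive CD4+ T cells (log2 difference -0.29 ± 0.36, adjusted p = 0.786).

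**Figure D2:**
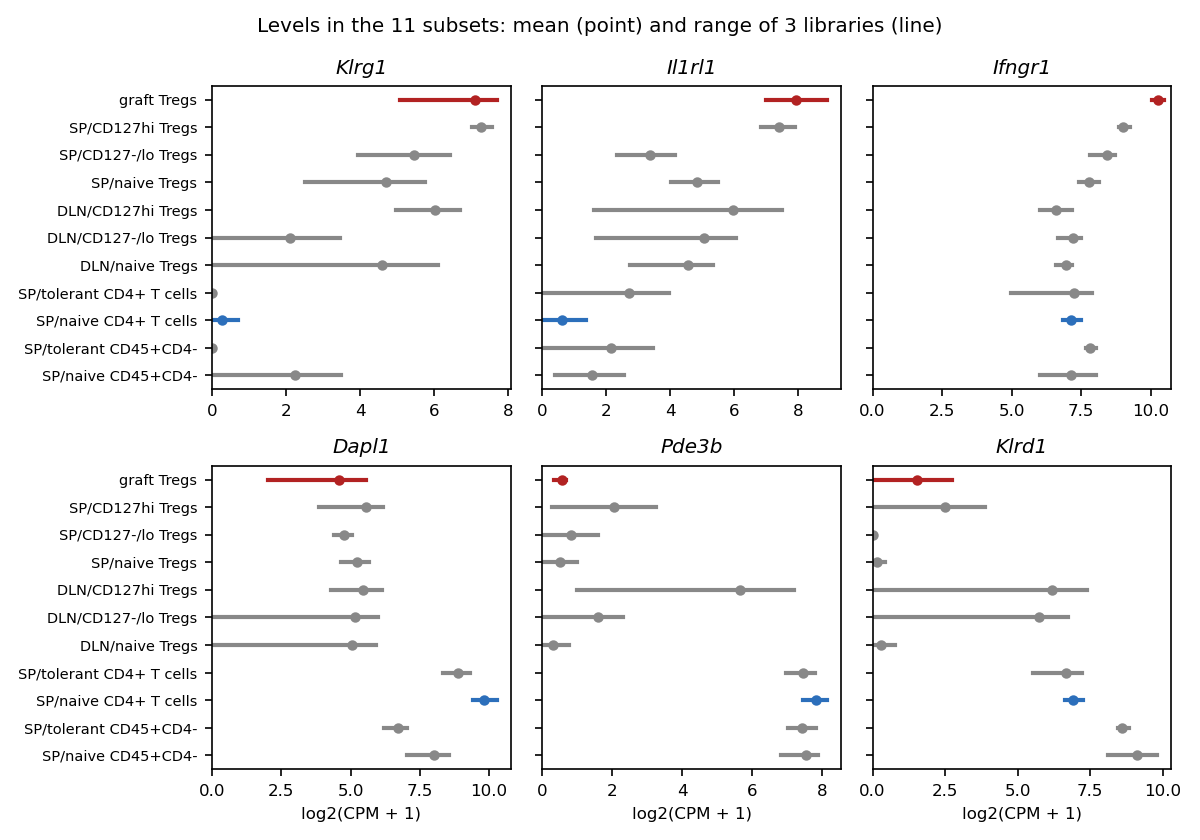
Levels of 6 genes in the 11 subsets as log2(CPM + 1) on the horizontal axes, with the mean level (point) and the range (line) of 3 libraries. Graft Tregs are red and naive CD4+ T cells blue. Ifngr1 is highest in graft Tregs, where its 3 libraries lie between 1056 and 1422 CPM, while Pde3b lies below 1 CPM in all 3 graft Treg libraries and at 176 CPM or more in all 3 naive CD4+ T cell libraries.

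Of 17 suppressive and secreted molecules, 2 were called higher and none lower, with a median log2 fold change of 1.90, and Il12a and Il17a had no read in the 6 libraries. Fgl2, a fibrinogen-like protein with which Tregs can suppress (chr5:21372642-21378374), was at 189, 486 and 253 CPM in graft Tregs and at 0.328, 0 and 0 in naive CD4+ T cells. Penk, the precursor of the enkephalin opioid peptides (chr4:4133531-4138819), was at 132, 90.6 and 43.5 CPM in graft Tregs and at 0 in each naive CD4+ T cell library. Neither gene overlapped between the groups. The pooled ratio of Fgl2 was 2720, with a 95% counting interval from 488 to 107447 (adjusted p = 9.94e-10), and Penk was at least 85.6-fold higher (adjusted p = 1.35e-08). Il10 was read in 2 of 3 graft Treg libraries, at 36.8, 8.51 and 0 CPM against 0, 0.633 and 0, and did not pass the test (adjusted p = 0.16). The growth factor Areg (39, 5.21 and 0 CPM against 0 throughout) and Ebi3, a subunit of IL-35 (9.75, 0 and 10.7 against 0 throughout), were likewise uneven and not called (adjusted p = 0.129 and 0.189). Entpd1, the ectonucleotidase CD39, gave 44.1, 33.2 and 70.9 CPM against 0, 1.58 and 23.5 (adjusted p = 0.417).

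Of 12 costimulatory receptors, 2 were called higher and none lower, with a median of 0.96, and both are TNF receptor family members known from Tregs. Tnfrsf4 (OX40) was at 1659, 2139 and 503 CPM in graft Tregs and 190, 130 and 190 in naive CD4+ T cells, a rise of 3.07 ± 0.44 (adjusted p = 4.35e-08). Tnfrsf18 (GITR) was at 416, 734 and 356 CPM against 109, 6.96 and 93.2, and rose by 2.85 ± 0.57 (adjusted p = 7.67e-04). The groups did not overlap for either. Icos was higher in each graft Treg library (1095, 1321 and 697 CPM against 472, 143 and 512) but missed the threshold (adjusted p = 0.0603), and was called with RLE scaling (0.0362) and with no filter on low counts (0.0271). Cd40lg, the CD154 that MR-1 binds, was lower in each (81.2, 98 and 89.1 against 427, 297 and 443) with an adjusted p of 0.167. Cd40lg was called lower with DESeq2 (4.59e-06), with the compared libraries only (0.00755) and with spleen and graft libraries only (0.00299).

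Of 19 chemokine receptors and integrins of tissue T cells, 3 were called higher and none lower, with a median of 0.43. Itgae (CD103; chr11:73090583-73147446), the integrin chain that binds E-cadherin on epithelium, was at 112, 178 and 134 CPM in graft Tregs and at 0, 0.95 and 0.392 in naive CD4+ T cells, a rise of 8.16 ± 1.20 (adjusted p = 1.55e-07). Ccr8, a chemokine receptor of tissue Tregs, was at 70.1, 43.4 and 52.4 CPM against 0 throughout, at least 53.4-fold higher (adjusted p = 0.00451). Ccr2, a receptor for inflammatory chemokines, was at 291, 367 and 246 CPM against 1.97, 4.75 and 63.9 and rose by 3.68 ± 0.89 (adjusted p = 0.0129). The groups were apart for all 3 genes, but the call of Ccr2 was lost without naive CD4+ T cell replicate 1 (adjusted p = 0.116) or 2 (0.0913). With 1 library left out, the rise of Ccr2 ranged from 3.14 to 6.47. Outside that list, Itgb8, an integrin chain that activates latent TGF-β, was called higher (adjusted p = 0.00838) with levels that overlapped, at 36.6, 376 and 319 CPM against 37.4, 31.3 and 8.23. Its call was lost without graft Treg replicate 2 (0.0744) or naive CD4+ T cell replicate 3 (0.0922).

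Of 15 transcription factors known from effector and tissue Tregs, 1 was called higher and none lower, with a median of 1.73. Maf was at 914, 1259 and 1160 CPM in graft Tregs and 372, 163 and 300 in naive CD4+ T cells, a rise of 2.00 ± 0.44 (adjusted p = 0.00375, and 0.053 without naive CD4+ T cell replicate 2). Gata3 (181, 154 and 273 CPM against 21, 86.4 and 32.5) and Rora (281, 265 and 406 against 26.9, 82.3 and 67.8) were higher in each graft Treg library without passing the test (adjusted p = 0.172 and 0.156). Both were called with spleen and graft libraries only (0.0326 and 0.0136), Gata3 also with DESeq2 (0.0181) and Rora with the compared libraries only (0.017). Ahr, a ligand-activated transcription factor that was not on that list, rose from 0.656, 1.58 and 0 CPM to 35.5, 23.3 and 56 (log2 difference 5.57 ± 1.41, adjusted p = 0.0247). The call of Ahr was lost without graft Treg replicate 3 (adjusted p = 0.0539) or naive CD4+ T cell replicate 1 (0.116) or 3 (0.151).

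Of 24 interferon γ response genes, 2 were called higher and none lower, with a median of 0.58. Both encode guanylate-binding proteins, GTPases of cell-autonomous defence, and members of this family are similar in sequence, so reads may be split between them. Gbp3 was at 219, 164 and 158 CPM in graft Tregs and 22.6, 0.633 and 0.392 in naive CD4+ T cells, a rise of 4.50 ± 0.88 (adjusted p = 4.08e-04). That rise ranged from 3.95 to 8.28 with 1 library left out. Gbp7 was at 392, 299 and 319 CPM against 91.5, 59.2 and 68.2, and rose by 2.20 ± 0.56 (adjusted p = 0.0272). The groups did not overlap for either gene. The call of Gbp7 was lost without graft Treg replicate 1 (0.0812) or without naive CD4+ T cell replicate 1 (0.0522), 2 (0.135) or 3 (0.101).

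Rgs1, a brake on chemokine receptor signalling found in tissue-resident lymphocytes (chr1:144242296-144249242), was the 1 gene called among 29 immediate early, AP-1 and NR4A genes, whose median was 0.64 (0.45 with genes without reads in a group at their limit). Its level was 1368, 1051 and 673 CPM in graft Tregs and 70.5, 57.6 and 45.8 in naive CD4+ T cells, a rise of 4.15 ± 0.52 (adjusted p = 1.69e-10). In the group of S100, annexin, galectin and cytoskeletal genes, 2 of 20 were called higher and 1 lower, with a median of 1.07. S100a10, the partner of annexin A2, rose by 1.27 ± 0.29 (3351, 2838 and 2108 CPM against 1018, 1212 and 1204, adjusted p = 0.00567). Ahnak, a large scaffold protein that binds S100a10, rose by 2.45 ± 0.56 (412, 254 and 341 against 63, 58.9 and 61.9, adjusted p = 0.00564). Tmsb10, an actin-binding thymosin, fell by 1.30 on the log2 scale (731, 1176 and 975 against 1473, 2996 and 2601, adjusted p = 0.00875). All 3 genes were apart in the 6 libraries. The call of S100a10 was lost without graft Treg replicate 1 (0.0859) or naive CD4+ T cell replicate 1 (0.0603), that of Ahnak without naive CD4+ T cell replicate 2 (0.0558), and that of Tmsb10 without graft Treg replicate 1 (0.121) or naive CD4+ T cell replicate 2 (0.111).

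Several of the genes with the smallest p or the largest change fell outside these groups. AW112010, a transcript induced in activated and inflamed T cells, was at 11202, 21735 and 10048 CPM in graft Tregs and 2535, 3968 and 5796 in naive CD4+ T cells, a rise of 1.81 ± 0.20 (adjusted p = 7.28e-14). Serinc3, a membrane protein of the serine incorporator family, rose by 2.13 ± 0.32 from 566, 180 and 495 CPM to 1922, 1935 and 1584 (adjusted p = 3.14e-07). Both were apart in the 6 libraries. The protease inhibitor Serpina3g, a member of a family of near-identical genes, rose by 5.29 ± 0.92, from 1.97, 2.53 and 3.92 CPM to 89.1, 154 and 90.6 (adjusted p = 2.41e-05). Cish, a suppressor of cytokine signalling that STAT5 induces, rose by 6.77 ± 1.42, with 100, 50.5 and 107 CPM against 0, 0 and 2.35 (adjusted p = 0.00162). Swap70, a regulator of Rac and the actin cytoskeleton, rose by 6.97 ± 1.11, with 15.4, 77.7 and 90 CPM against 0, 1.27 and 0 (adjusted p = 2.17e-06). These 3 genes did not overlap between the groups, and none of their calls was lost when a library was left out. The size of the rise then ranged from 6.18 to 10.97 for Cish, 6.37 to 10.47 for Swap70 and 4.99 to 5.6 for Serpina3g.

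More genes without reads in naive CD4+ T cells were among those with the largest fitted change. Pros1, the protein S ligand of the TAM receptor kinases, was at 93.2, 90.8 and 32.8 CPM, at least 69.7-fold higher (adjusted p = 0.0116). Axl, one of those receptors, was called as well, at 30.6, 47.7 and 24.4 CPM against 0.656, 0.317 and 1.57, a rise of 5.30 ± 1.39 (adjusted p = 0.0344). Zcchc18 was at 26.3, 77.1 and 23.5 CPM, at least 40.8-fold higher (adjusted p = 0.002), and Spin2c, which has close copies on the X chromosome, was at 36.3, 43.1 and 45 CPM (adjusted p = 0.00452). Rasgef1a was at 47.9, 6.04 and 20.6 CPM (adjusted p = 0.0367). The calls of Zcchc18 and Spin2c withstood the loss of any library. That of Pros1 was lost without naive CD4+ T cell replicate 1 (0.076), 2 (0.0735) or 3 (0.059). That of Axl was lost without graft Treg replicate 2 (0.0698) or naive CD4+ T cell replicate 1 (0.134), 2 (0.173) or 3 (0.0576), and that of Rasgef1a without graft Treg replicate 1 (0.0862) or naive CD4+ T cell replicate 1 (0.142), 2 (0.166) or 3 (0.14).

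**Figure D3:**
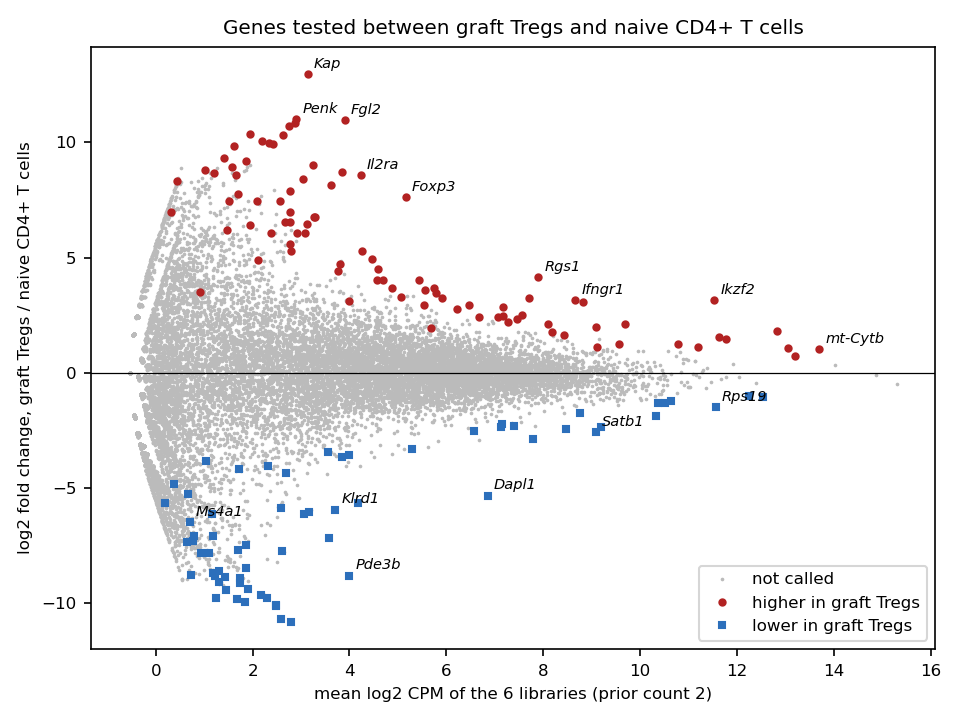
Log2 fold change of graft Tregs over naive CD4+ T cells (vertical axis) against the mean log2 CPM of the 6 libraries, with a prior count of 2 (horizontal axis), for the 25347 genes tested. Red circles are the 91 genes called higher, blue squares the 66 called lower and grey points the rest. Called genes of high level include Ikzf2 (3.14), AW112010 (1.81) and mt-Cytb (1.04), and the points farthest from 0 are genes with few or no reads in 1 group, such as Kap and Gm14718.

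Genes of the resting state lay lower in graft Tregs. All 17 genes of the resting and lymphoid homing group had a log2 fold change below 0, against 14337 of the 25347 genes tested, 7 of them were called lower and none higher, and their median was -1.80. Dapl1 (chr2:59484653-59505020), a gene of resting T cells, had the smallest p of the group. Its level was 19, 3.02 and 46.5 CPM in graft Tregs and 809, 1241 and 680 in naive CD4+ T cells, and it fell by 5.32 on the log2 scale (SE 0.75, adjusted p = 3.05e-08). Satb1, a chromatin organiser of T cell development (chr17:51736187-51833290), was at 346, 148 and 206 CPM against 1002, 1869 and 1254 and fell by 2.56 (SE 0.41, adjusted p = 2.91e-06). Txk, a Tec family kinase of T cell receptor signalling (chr5:72695978-72752777), was at 292, 213 and 284 CPM against 1345, 1510 and 1136 and fell by 2.34 (SE 0.44, adjusted p = 1.95e-04). Lef1, the partner of Tcf7 in keeping the naive state (chr3:131110471-131224356), was at 91, 63.9 and 89.1 CPM against 539, 757 and 517 and fell by 2.89 (SE 0.59, adjusted p = 8.96e-04). In each of these 4 genes the highest graft Treg library lay below the lowest naive CD4+ T cell library.

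Bach2, a repressor of effector differentiation, was at 75.6, 42 and 69.4 CPM against 353, 280 and 315 (adjusted p = 0.0146). Igfbp4, an insulin-like growth factor binding protein of naive T cells, was at 0.812, 6.59 and 0.596 CPM against 146, 112 and 148 (adjusted p = 0.0209). Ly6c1, a surface antigen encoded beside its near-identical copy Ly6c2, was at 193, 147 and 132 CPM against 1094, 604 and 827 (adjusted p = 0.00833). All 3 fell without overlap. The call of Bach2 was lost without graft Treg replicate 2 (0.145) or 3 (0.0581), that of Igfbp4 without graft Treg replicate 1 (0.142) or 3 (0.144) or naive CD4+ T cell replicate 1 (0.0513), and that of Ly6c1 without graft Treg replicate 2 (0.0513) or 3 (0.0539). The lymph node homing receptor Ccr7 was not called, at 67.4, 17.8 and 146 CPM against 276, 167 and 361 (adjusted p = 0.264). Tcf7 (248, 123 and 204 against 608, 642 and 665) and Foxp1 (440, 190 and 385 against 796, 998 and 781) were lower in each graft Treg library with adjusted p of 0.0693 and 0.0714. Both were called with DESeq2 (0.0221 and 0.0139) and with spleen and graft libraries only (0.00272 and 0.00653), and Tcf7 also with the compared libraries only (0.0131) and after ComBat-Seq (0.0454). Ccr7 was called with spleen and graft libraries only (0.0445).

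Pde3b, a phosphodiesterase that breaks down cyclic AMP (chr7:114415281-114539251), had the smallest p among the lower genes whose libraries did not overlap. It was at 0.271, 0.549 and 0.596 CPM in graft Tregs and at 223, 176 and 283 in naive CD4+ T cells, and fell by 8.79 on the log2 scale (SE 1.23, adjusted p = 2.65e-08). Across the subsets its mean was 3.12 CPM or less in the spleen Tregs, DLN/naive Tregs and DLN/CD127-/lo Tregs. It was between 173 and 227 CPM in the CD4+GFP− and CD45+CD4− subsets of spleen. DLN/CD127hi Tregs were uneven, from 0.973 to 146 CPM. Rapgef4, a guanine nucleotide exchange factor that cyclic AMP activates, was at 0, 0.274 and 2.09 CPM in graft Tregs and 102, 102 and 147 in naive CD4+ T cells, and fell by 7.17 (SE 1.30, adjusted p = 6.76e-05). Vipr1, a receptor for vasoactive intestinal peptide that raises cyclic AMP, had no read in graft Tregs and was at 31.8, 44.6 and 64.2 CPM in naive CD4+ T cells, at least 55.6-fold lower (adjusted p = 0.00701). Its call was lost without graft Treg replicate 1 (0.0594), 2 (0.0638) or 3 (0.0539). These 3 genes formed no list and were put side by side after their values were seen.

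Killer lectin receptors and cytotoxic genes moved both ways, with 1 of 17 called higher, 3 lower, and a median of -0.84. Klrg1 was the gene called higher. Klrd1, which encodes CD94 (chr6:129591782-129598775), was at 5.69, 0 and 0 CPM in graft Tregs and at 98.8, 153 and 107 in naive CD4+ T cells, without overlap, and fell by 5.93 (SE 0.98, adjusted p = 5.54e-06). The lectin Klrb1f had no read in graft Tregs and was at 0.656, 31.3 and 27.8 CPM in naive CD4+ T cells, at least 23.6-fold lower (adjusted p = 0.0112, and 0.0651, 0.0698 and 0.058 without graft Treg replicate 1, 2 or 3). The call of Gzma, a granule protease, rested on 1 library. It was at 65.8 CPM in naive CD4+ T cell replicate 3 and at 0 in replicates 1 and 2, against 0.271, 0 and 0 in graft Tregs (adjusted p = 0.00162), and without that replicate the call was lost (adjusted p = 0.804). Markers of CD8 T and NK cells, 5 genes of which none was called, summed to 40.1, 0.274 and 45.6 CPM in graft Tregs and 35.1, 80.4 and 45 CPM in naive CD4+ T cells. DESeq2 gave 1 of the 5 no adjusted p and called none of the others, and 3 of them were lower at an unadjusted p below 0.05 in edgeR.

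Other lower genes included regulators of T cells and poorly characterised transcripts. Ms4a4b, a membrane protein of naive and Th1 cells, fell by 1.03 (SE 0.22), with 5236, 3165 and 4228 CPM against 10027, 6385 and 9379 (adjusted p = 0.00213, but 0.448 under the likelihood ratio test, 0.225 with DESeq2 and 0.217 after ComBat-Seq). Ikzf1, the transcription factor Ikaros, was at 168, 151 and 442 CPM against 672, 1009 and 863 (adjusted p = 0.0191), and Ugcg, which makes glucosylceramide, was at 85.8, 37.6 and 113 CPM against 409, 428 and 332 (adjusted p = 0.0174). The 3 genes were apart in the 6 libraries. The call of Ikzf1 was lost without graft Treg replicate 1 (0.194) or 2 (0.198) or naive CD4+ T cell replicate 2 (0.116) or 3 (0.0554), and that of Ugcg without graft Treg replicate 1 (0.0703) or 2 (0.191) or naive CD4+ T cell replicate 2 (0.0605). The genes with the largest fitted falls had no read in graft Tregs. Among them, Gm14718 was at 42.7, 63.6 and 121 CPM in naive CD4+ T cells, at least 89.9-fold lower (adjusted p = 0.00281). Gm13546 was at 18, 143 and 52.1 CPM, at least 84.2-fold lower (adjusted p = 8.75e-04), and lies opposite Cytip, and the counts ignore strand. Mctp2 was at 60.7, 12.7 and 30.2 CPM, at least 40.9-fold lower (adjusted p = 0.00479), and Tmem185a was at 0.984, 59.2 and 66.6 CPM, at least 50.1-fold lower (adjusted p = 0.00515). None of these 4 calls was lost when a library was left out. Those of Nme4 (49.9, 29.4 and 59.9 CPM), Qpct (19.7, 40.2 and 50.9), Rnf32 (40.4, 73.1 and 0.392) and Sipa1l2 (21.7, 58.6 and 5.48), also without reads in graft Tregs, had adjusted p between 0.0227 and 0.0351 and were lost when any 1 graft Treg replicate was left out (0.112 to 0.147). They were also lost without naive CD4+ T cell replicate 1 (0.0535) or 3 (0.0644) for Nme4, and without replicate 2 for Rnf32 (0.0898) and Sipa1l2 (0.0906).

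**Figure D4:**
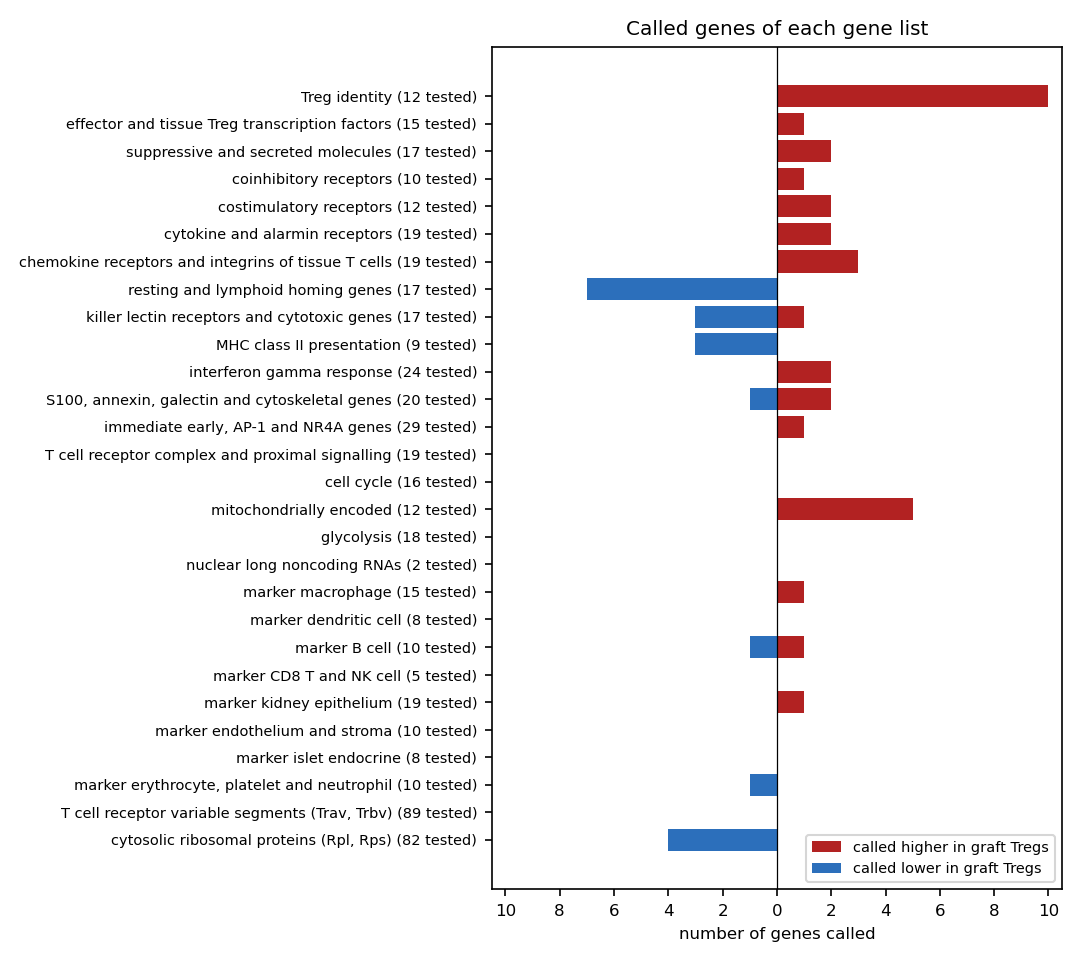
Number of genes called higher (red, to the right) and lower (blue, to the left) in graft Tregs in each gene list, with the number of genes tested in brackets. The Treg identity list has 10 of 12 genes called higher, and the resting and lymphoid homing list has 7 of 17 called lower.

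Many groups held few or no called genes. None of 19 genes of the T cell receptor complex and proximal signalling was called by edgeR, with a median of -0.06, while 1 higher and 3 lower had an unadjusted p below 0.05 and DESeq2 called 1 lower. None of 89 T cell receptor variable segments was called (5 higher and 12 lower at an unadjusted p below 0.05, and 3 lower with DESeq2, which gave 50 of the 89 no adjusted p). None of 16 cell cycle genes was called although their median was 2.27 and 14 lay above 0. Of these, 8 were higher and 1 lower at an unadjusted p below 0.05, and DESeq2 called 2 higher. Tyms, the thymidylate synthase of DNA replication, was at 99.9, 88.9 and 108 CPM in graft Tregs and 16.7, 12.7 and 12.1 in naive CD4+ T cells, without overlap (adjusted p = 0.105, and 0.00441 with DESeq2 and 0.0317 with spleen and graft libraries only). Cip2a and Ube2c, not on that list, were called higher and are placed here after their values were seen. Cip2a, an inhibitor of the phosphatase PP2A, was at 143, 47.2 and 75.4 CPM against 0, 0.633 and 0 (adjusted p = 0.00515, and 0.0535 without naive CD4+ T cell replicate 1), and Ube2c, a ubiquitin-conjugating enzyme of mitosis, was at 64.2, 54.6 and 0 CPM against 0 throughout, with overlap (adjusted p = 0.00398, but 0.102 with the compared libraries only, 0.131 with at least 10 counts in at least 3 libraries and 0.0506 after ComBat-Seq). None of 18 glycolysis genes was called by edgeR or DESeq2, and none had an unadjusted p below 0.05, with a median of 0.62. Neither of 2 nuclear long noncoding RNAs was called (1 higher and 1 lower at an unadjusted p below 0.05, none with DESeq2). Of 8 markers of naive CD4+ T cells, 3 were called lower, all of them also in the resting group (Lef1, Dapl1 and Igfbp4).

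Mitochondrial and ribosomal transcripts took opposite sides. Of 12 mitochondrially encoded genes, 5 were called higher (mt-Nd1, mt-Nd2, mt-Nd4, mt-Co1 and mt-Cytb) and none lower, with a median of 0.81, and together the mitochondrial genes took 6.74, 4.33 and 5.3% of the counts in graft Tregs against 2.15, 2.44 and 3.4% in naive CD4+ T cells. Mt-Cytb, a subunit of respiratory complex III, rose by 1.04 ± 0.18, with 23009, 16535 and 18896 CPM against 7283, 8075 and 13151 (adjusted p = 1.32e-05). The call of mt-Co1 (adjusted p = 0.028) was lost without graft Treg replicate 1 (0.208) or naive CD4+ T cell replicate 1 (0.0826) or 2 (0.0866). Of 82 cytosolic ribosomal protein genes, 80 had a log2 fold change below 0 and 4 were called lower (Rps19, Rps27, Rps29 and Rpl32), with a median of -0.86. They took 4.55, 4.51 and 4.17% of the counts in graft Tregs against 5.45, 11 and 7.94% in naive CD4+ T cells, with the highest share in replicate 2. Rps19, a protein of the small subunit, was at 2078, 1881 and 1659 CPM against 3135, 7474 and 5059, and fell by 1.48 (SE 0.25, adjusted p = 1.02e-05). The calls of Rps27, Rps29 and Rpl32 were lost without naive CD4+ T cell replicate 2 (0.241, 0.319 and 0.329), and those of Rps29 and Rpl32 also without graft Treg replicate 1 (0.0591 and 0.0585), 2 (0.0639 and 0.0744) or 3 (0.118 and 0.186). All 5 mitochondrial and all 4 ribosomal calls were lost under the likelihood ratio test, with adjusted p of 0.406 for mt-Cytb, 0.371 for mt-Nd1, 0.579 for mt-Co1 and 0.182 for Rps19. DESeq2 lost those of mt-Cytb (0.0979), mt-Co1 (0.284), Rps27 (0.131) and Rpl32 (0.143). Ribosomal protein genes have many processed copies in the genome, so the counts depend on how reads of those copies were placed. The part of RNA quality and of replicate 2 in these shares was not tested.

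Genes of other cell types were read unevenly between libraries. Kap, a transcript of kidney proximal tubule and the gene with the largest fitted change of all, was at 114, 887 and 13.4 CPM in graft Tregs and had no read in naive CD4+ T cells, at least 326-fold higher (adjusted p = 2.17e-06). Its level differed widely among the 3 graft libraries, so the limit of 326-fold leans on graft Treg replicate 2. Without that library the call was lost (adjusted p = 0.058), and the fitted log2 change fell from 12.94 to 10.53. DESeq2 did not call Kap (adjusted p = 0.369). Kap was the 1 gene called by edgeR's quasi-likelihood test among 19 tested kidney epithelium markers, whose median was 1.69 (1.03 with genes without reads in a group at their limit). The 20 markers summed to 197, 1047 and 99.2 CPM in graft Tregs and to 219, 27.9 and 6.27 CPM in naive CD4+ T cells, and 5 to 10 of them were at 0 in a graft Treg library. Most of the sum in naive CD4+ T cell replicate 1 was Spp1, which encodes the secreted protein osteopontin and is also expressed by immune cells. Akr1c21, an aldo-keto reductase also read in the kidney, was at 0.812, 63.1 and 107 CPM against 0 throughout (adjusted p = 0.0466), and its call was lost without graft Treg replicate 2 (0.0696) or 3 (0.118) or naive CD4+ T cell replicate 1 (0.167), 2 (0.191) or 3 (0.161). The grafted islets were porcine while reads were counted on mouse genes, so the counts do not show whether islet cells of the graft were present. None of 8 mouse islet markers was called (1 lower at an unadjusted p below 0.05, while DESeq2 gave none of the 8 an adjusted p).

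Lyz2, the lysozyme of macrophages, was at 65.8, 0 and 427 CPM in graft Tregs against 0, 0.317 and 0, with overlap, and was called higher with a pooled ratio of 1372 (95% counting interval 246 to 54225, adjusted p = 5.62e-11). The 15 macrophage markers summed to 77.7, 8.78 and 518 CPM in graft Tregs and to 29.5, 26.6 and 5.48 CPM in naive CD4+ T cells, and Lyz2 was the 1 of them called (2 higher and 1 lower at an unadjusted p below 0.05). In the graft Treg libraries, 11, 14 and 8 of the 15 were at 0, among them Adgre1 and C1qa in all 3. C1qb, a complement component of macrophages, was at 0, 0 and 42.6 CPM against 0, 0.317 and 0.392 and was not called (adjusted p = 0.289), so replicate 3 held reads of macrophage genes besides Lyz2. Ccl8, a chemokine of macrophages, was at 21.1, 0 and 30.4 CPM against 0 throughout (adjusted p = 0.0048, but 0.287 with DESeq2, 0.365 with the compared libraries only and 0.113 after ComBat-Seq). None of 8 dendritic cell markers was called by edgeR (1 higher and 2 lower at an unadjusted p below 0.05, and 1 lower with DESeq2, which gave 1 of the 8 no adjusted p), nor any of 10 endothelial and stromal markers (1 lower at an unadjusted p below 0.05, while DESeq2 gave 8 of the 10 no adjusted p and called neither of the others). The part of macrophages and kidney cells in these results was not tested. In bulk samples, fewer cells of a type and less RNA per cell cannot be told apart.

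Of the MHC class II genes, H2-Aa, H2-Ab1 and H2-Eb1, which encode class II chains, were called lower and none higher, and 6 further genes of the presentation list were not called, with a median of -0.14 over the 9 (0.00 with genes without reads in a group at their limit). H2-Aa was at 0, 0 and 23.8 CPM in graft Tregs and 148, 93.4 and 53.3 in naive CD4+ T cells (adjusted p = 2.59e-04). H2-Ab1 was at 9.48, 0 and 9.23 CPM against 117, 25 and 80.7 (adjusted p = 0.00102), and H2-Eb1 at 0, 5.21 and 0 against 66.9, 11.7 and 30.2 (adjusted p = 2.87e-04). These 3 genes did not overlap between the groups, but their calls were not firm. Under the likelihood ratio test and DESeq2, H2-Aa (adjusted p = 0.114 and 0.182) and H2-Ab1 (0.112 and 0.185) were not called. After ComBat-Seq none of the 3 was (0.129 for H2-Aa, 0.188 for H2-Ab1 and 0.0551 for H2-Eb1), nor was any with at least 10 counts in at least 3 libraries (0.223, 0.224 and 0.113) or with the compared libraries only (0.389, 0.358 and 0.496). Among 10 B cell markers, which summed to 614, 1153 and 908 CPM in graft Tregs and 534, 350 and 458 CPM in naive CD4+ T cells, Ighm was called higher and Ms4a1 lower. Ighm, the μ heavy chain, was at 571, 1108 and 800 CPM against 382, 344 and 423 (adjusted p = 0.0276). The call of Ms4a1 rested on 1 library. Ms4a1, which encodes CD20, was at 35.4 CPM in naive CD4+ T cell replicate 1 and at 0.392 CPM or less elsewhere (adjusted p = 1.55e-06, and 0.644 without that replicate). The call of Ighm was lost without graft Treg replicate 2 (0.273) or 3 (0.0539) or naive CD4+ T cell replicate 1 (0.092) or 2 (0.146).

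Other genes of the B lineage were called in both directions. Igkc, the κ light chain of immunoglobulin, was higher by 1.93 on the log2 scale, at 44.4, 126 and 185 CPM in graft Tregs against 59.1, 14.6 and 19.2, with overlap (adjusted p = 0.0012, and 0.216 with the likelihood ratio test). Iglc2, Iglc3 and Ebf1 were lower. The λ light chain genes Iglc2 (0 throughout against 37.1, 15.2 and 0 CPM, adjusted p = 1.35e-08) and Iglc3 (0, 4.94 and 0 against 9.19, 64.9 and 8.23, adjusted p = 1.59e-04) are near-identical copies. Ebf1, a B cell transcription factor, was at 0.542, 0 and 2.68 CPM against 13.1, 45.6 and 0 (adjusted p = 2.44e-04, and 0.066 without naive CD4+ T cell replicate 2). The part of B cells in the class II differences was not tested. Hbb-bs, the haemoglobin β chain of red cells, was called lower on the reads of naive CD4+ T cell replicate 1 alone (177 CPM, against 0 in replicates 2 and 3 and 2.44, 0 and 0 CPM in graft Tregs), and without that replicate it lay on the other side of 0 (4.33, adjusted p = 0.492). Its call (0.0448) was also lost without graft Treg replicate 2 (0.158) or 3 (0.142). It was the 1 gene called among 10 markers of red cells, platelets and neutrophils.

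**Figure D5:**
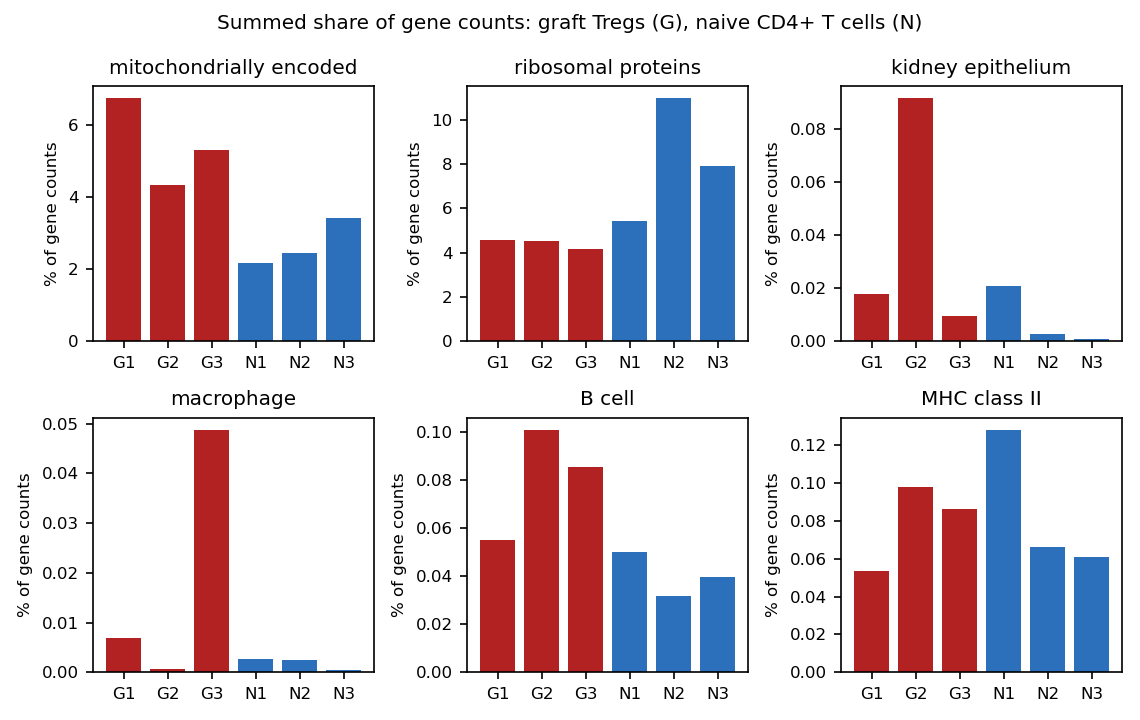
Summed share of gene counts (per cent, vertical axes, each from 0) of 6 gene lists in each library of graft Tregs (G1 to G3, red) and naive CD4+ T cells (N1 to N3, blue). Mitochondrial genes are higher and ribosomal protein genes lower in all 3 graft Treg libraries, and the kidney and macrophage shares stand out in graft Treg replicates 2 and 3, respectively.

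SP/naive Tregs share the Foxp3 gate with graft Tregs but come from the spleen of other mice, without a transplant or treatment. Their values give the level of these genes in such Tregs. Graft Tregs and SP/naive Tregs differed in 33 genes (0.13% of those tested), and SP/naive Tregs and naive CD4+ T cells in 67 (0.264%). The comparisons share libraries with the main one, so values are given side by side and no overlap is drawn. Penk and Il2ra overlapped between graft Tregs and SP/naive Tregs, while Foxp3 was higher in each graft Treg library without passing the test. Penk was at 115, 63.9 and 92.7 CPM (graft Tregs over SP/naive Tregs, log2 difference -0.03, adjusted p = 1), Il2ra at 444, 285 and 466 (-0.53, adjusted p = 0.793) and Foxp3 at 359, 468 and 353 (0.61, adjusted p = 0.793). Graft Tregs and SP/naive Tregs also overlapped for the lower genes Dapl1 (36.1, 49.4 and 24.5 CPM, -0.68, adjusted p = 0.793), Pde3b (0.275, 1.01 and 0, 0.21, adjusted p = 1) and Satb1 (413, 394 and 294, -0.65, adjusted p = 0.782).

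Other genes were called between graft Tregs and SP/naive Tregs. These calls are given for the main fit only, and the number of genes called in this comparison changed widely with the processing. Ifngr1 was at 200, 171 and 280 CPM in SP/naive Tregs, and graft Tregs were higher by 2.49 on the log2 scale (adjusted p = 0.00317), while SP/naive Tregs and naive CD4+ T cells differed by 0.65 (adjusted p = 0.805). S100a10, at 1247, 790 and 1199 CPM in SP/naive Tregs, was higher by 1.36 in graft Tregs (adjusted p = 0.0068). Ikzf2 (5882, 3819 and 4019 CPM) was higher by 1.08 (adjusted p = 0.00353), and AW112010 (6869, 6146 and 6851 CPM) by 1.11 (adjusted p = 6.47e-05). Kap and mt-Cytb were called in this comparison too, Kap with no read in SP/naive Tregs (adjusted p = 3.96e-06) and mt-Cytb with 7152, 5902 and 5031 CPM there (1.69, adjusted p = 6.83e-14). Klrg1 and Il1rl1 had lower means in SP/naive Tregs than in graft Tregs. Klrg1 was at 4.68, 16.9 and 53.3 CPM, with replicate 3 above the lowest graft Treg library (32.7 CPM), and the difference of 2.44 from graft Tregs did not pass the test (adjusted p = 0.529). Il1rl1 was at 23.4, 43.6 and 15.4 CPM, each below the lowest graft Treg library of 126 CPM, with a difference of 3.15 (adjusted p = 0.336). Fgl2 was at 13.8, 91 and 40.2 CPM, again below each graft Treg library, with a difference of 2.68 (adjusted p = 0.336). Klrd1 was near 0 in SP/naive Tregs as in graft Tregs (0, 0.338 and 0 CPM). The related receptor gene Klrk1 had no read there, against 55.5, 0 and 12.8 CPM in graft Tregs and 46.3, 22.2 and 54.5 in naive CD4+ T cells. Klrk1 was called higher in graft Tregs than in SP/naive Tregs (adjusted p = 0.00174), but with overlap, as graft Treg replicate 2 was at 0.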

How the data were processed

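Per the labels and the study's methods, the authors used Trim Galore for trimming, FastQC for quality control and STAR for alignment to mm10, and deposited STAR's raw counts of reads per gene for each library, without normalization. The column that sums both strands was used, since 49.45 to 50.06% of stranded reads fell on 1 strand in each library. The first 4 rows, which hold unmapped, multimapping, unassigned and ambiguous reads, were left out. Of the 31054 features, 119 besides EGFP had no name in GENCODE vM21, which gave symbols and positions. Spleen and graft libraries (24) were run on 1 sequencer and lymph node libraries (9) on another, so the sequencer did not differ within the 6 compared.

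Genes were kept when any library reached 1 CPM, TMM factors were computed over 33 libraries, and edgeR 4.0.16 (R 4.3.3) was fitted with 1 mean per subset, so that all subsets shared the estimate of the spread. Quasi-likelihood tests were adjusted by Benjamini-Hochberg over 25347 genes, at 0.05. The study used edgeR's likelihood ratio test, an alternative here. Other alternatives were DESeq2 1.42.0, RLE scaling, other filters on low counts, fits on fewer libraries, ComBat-Seq (sva 3.50.0), a block on the replicate number, and each compared library left out. A stricter filter on the compared libraries alone was added after seeing the data. Replicates differed beyond sampling noise, with a chi-square per degree of freedom of 41.92 or more among the compared replicates. The scripts were tested on simulated data.

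Genes were named when they were in a gene list and called or well known for it, or were among the 10 called genes per direction with the smallest p or largest fold change and no overlap between groups; a few others named in the text were chosen after their values were seen. The comparison, its gene lists and its named genes were chosen with earlier results of these data known. A few genes are not reported here and were left out of the lists. A fold change against a group without reads is a limit from 3 counts per library, and ratios against 1 to 3 pooled counts carry an exact 95% interval.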

Additional observations from a re-analysis of the deposited data

How the results depend on the processing

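The number of genes called between graft Tregs and naive CD4+ T cells (157, with 91 higher and 66 lower) depended on the tool and the filter. Under the likelihood ratio test, the study's own, it was 173, of which 51% were higher and 114 were shared with the 157. It was 634 (286 higher, 348 lower, 136 shared with the 157) with DESeq2, 59 (38 and 21, 55 shared) with at least 10 counts in at least 3 libraries, 95 (57 and 38, 81 shared) with the 6 compared libraries only, 36 (24 and 12, 34 shared) with both of these, chosen after seeing the data, 270 (145 lower, 139 shared) with spleen and graft libraries only, and 52 (29 and 23, 42 shared) after ComBat-Seq for the sequencer. The share of calls that were higher was 58%, against 45% with DESeq2. With 1 library left out, the count ranged from 111, without naive CD4+ T cell replicate 2, to 146, and the higher genes from 58, without naive CD4+ T cell replicate 1 or 2, to 86.

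Graft Tregs and SP/naive Tregs differed in 33 genes, against 188 with DESeq2, 59 with no filter, 6 with at least 10 counts in at least 3 libraries, 12 with compared libraries only, 2 with both and 9 after ComBat-Seq. SP/naive Tregs and naive CD4+ T cells differed in 67 genes, against 190, 35 with the stricter filter and 15 after ComBat-Seq. The cause of these differences was not tested. The median over all genes moved from -0.22 to 0.00 without naive CD4+ T cell replicate 2 and to -0.47 without graft Treg replicate 3.

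The main fit did not pair libraries by replicate number. Same-numbered libraries of graft Tregs and naive CD4+ T cells had correlations of -0.019, -0.026 and -0.048. For SP/naive Tregs and naive CD4+ T cells these were 0.004, 0.086 and 0.048, and libraries of different number gave -0.083 to 0.052. A replicate block gave 168 calls (147 shared) in the main comparison and 61 between graft Tregs and SP/naive Tregs.

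Of 1743 values of the 110 genes named with a test, 1362 kept direction and side of the threshold under the alternatives, 342 lost the call, 36 gained one and 3 turned direction, C1qb (-2.68 without graft Treg replicate 3, up to 6.27 with another library left out), Gzma (1.66 without naive CD4+ T cell replicate 3, down to -8.98) and Hbb-bs (4.33 without naive CD4+ T cell replicate 1, down to -10.41). The likelihood ratio test lost 28 of these calls, among them all 5 mitochondrial and all 4 ribosomal ones. It also lost 2 of the 3 class II calls, as did DESeq2, and ComBat-Seq, the stricter filter and the compared libraries alone each lost all 3. ComBat-Seq with the subset as group could not be fitted, because the sequencer went with the tissue, and it was run without that term. Depth limits what a count of 0 can show, as given with the values.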
